A study of Saccharomyces cerevisiae with 72 samples.

Results

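The genes described here encode the subunits of the 26S proteasome of *Saccharomyces cerevisiae*. They were taken by systematic name: the 6 ATPases of the regulatory particle base (*RPT1* to *RPT6*), 4 other base subunits, 9 lid subunits, and the 7 α and 7 β subunits of the core particle, 33 genes of the 6660 in the table. All 33 had a value in every condition, as did 6496 of the 6660 genes, and these 6496 are meant where a percentage of all genes is given. Diploids of the S288c strain were wild type or homozygous for a deletion of *KAR4* (*kar4*Δ/Δ, called the mutant below), and polyadenylated RNA was sequenced at 0, 2, 4, 6, 8 and 12 h after transfer from acetate medium to sporulation medium. Each genotype carried 1 of 3 backgrounds. In the first *IME1* and *RIM4* were under their endogenous promoters. In the second a copy of *IME1* was under the estradiol-inducible Pzev promoter (Pzev-*IME1*). In the third a copy of each gene was under Pzev (Pzev-*IME1* Pzev-*RIM4*, called doubly induced, or with both promoters). The authors' strain list gives these Pzev strains as heterozygous, the other copy keeping its endogenous promoter. Among its strains that have the Z3EV construct and no epitope tag, those with both promoters carry it at both *LEU2* copies, the others at 1. Auxotrophic markers also differ among the 3 backgrounds. The *KAR4* deletions of the Pzev mutants carry *URA3* and, in the doubly induced mutant, *LEU2*, which the matching wild type strains lack. For overexpression, the authors added estradiol on transfer to sporulation medium. *KAR4* encodes a subunit of the mRNA methylation complex, *IME1* the transcriptional activator that starts meiosis, and *RIM4* an RNA-binding protein that controls the translation of meiotic mRNAs. The 36 conditions had 2 biological replicates each, 72 libraries in all.

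Every value is the log2 fold change of a condition from the reference, wild type with endogenous promoters at 0 h, as the authors computed it with the replicates combined. There is thus 1 value per gene and condition, with no replicate error, no depth and no test, and words such as higher, rose or fell describe these values only. A log2 value of 1 is a 2-fold difference and 0.58 a 1.5-fold difference. Differences between conditions were obtained by subtracting log2 values, which removes the shared reference as long as fold changes add on this scale. All comparisons share that reference, and the genotype and promoter comparisons also share columns with each other.

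The proteasome degrades proteins that carry ubiquitin chains. The lid and base bind the substrate, remove the chain and unfold the protein with the energy of ATP, and the core particle, a stack of α and β rings, cleaves it. In yeast most subunit genes share a promoter sequence, the proteasome-associated control element, to which the zinc finger activator Rpn4p binds. Rpn4p is itself a short-lived substrate of the proteasome, so that subunit mRNAs rise when proteolysis is limiting. During meiosis the proteasome removes regulators of the divisions, cyclins and securin among them.

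The element is shown because it is what the members share in sequence. Its 9 bases, GGTGGCAAA, were searched on both strands of a window from 250 bases before to 50 after each gene start, in 5982 protein-coding genes of the RefSeq annotation R64, the assembly also called sacCer3. The 9 bases occurred in 27 of the 33 members, once in each, and in 71 of all 5982 windows (1.19%). Its first base lay between 84 and 183 bases before the gene start, with a median of 120 bases, and it read in the direction of the gene in 19 of the 27. In the lines that follow, 29 bases are given 5′ to 3′ on the strand of the gene, with the element in capitals. *RPN6*, the member whose profile was most like that of the group, and *RPN11*, whose profile was among the least like it, both held the full element. *PRE6*, the highest member at the peak of the group, held it in the opposite direction.
RPN6, chrIV:286790-286818, minus strand: tggttccaagGGTGGCAAAtgttggtaga
RPN11, chrVI:153259-153287, plus strand: ggacctccaaGGTGGCAAAttcacaagaa
PRE6, chrXV:255218-255246, plus strand: cgaagattctTTTGCCACCggaagggaaa
RPT4, chrXV:813802-813830, minus strand: aatagtggaaTTTGCCACCgaagggaaag

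The other 6 members each held a 9-base window that differed from the element at a single base. Counted from the 5′ end of the element, *RPN8*, *PRE5* and *PUP1* carried G1A, and *SEM1*, *RPN13* and *RPN10* carried A7G. These spellings were searched after the 6 promoters had been read. AGTGGCAAA was present in 43 of the 5982 windows (0.719%) and GGTGGCGAA in 27 (0.451%), and 141 windows (2.36%), those of all 33 members included, held the element in 1 of the 3 spellings. A match describes letters only, and binding was not measured.
RPN8, chrXV:817085-817113, minus strand: gggatacctcAGTGGCAAAtcgttactca
PRE5, chrXIII:901552-901580, plus strand: cctattatagAGTGGCAAAattaaaaatt
PUP1, chrXV:631891-631919, minus strand: aacccggccgAGTGGCAAAataccaaaaa
SEM1, chrIV:1202007-1202035, plus strand: tagtgctatgGGTGGCGAAcgtggtgggc
RPN13, chrXII:965656-965684, minus strand: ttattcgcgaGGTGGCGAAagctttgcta
RPN10, chrVIII:498968-498996, plus strand: caggcgggttTTCGCCACCggaatttaca

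The targeted gene was examined first. *KAR4* (YCL055W) was lower in the mutant than in wild type by between −8.68 and −3.97 on the log2 scale in 17 of 18 comparisons. In the remaining column, labelled *kar4*Δ/Δ with endogenous promoters at 0 h, it was at −0.55, so that results resting on this column are given as those of the column labelled so. *RIM4* was already at 3.21 at 0 h in the doubly induced wild type column, against 0.23 in the mutant, and *IME1* at 3.03 against 1.41, so the 0 h columns of this background did not start alike. The median over all genes lay between −0.03 and 0.02 in every column. The spread of all genes was between 0.43 (SD) and 0.72 with endogenous promoters and reached 2.11 in the doubly induced wild type at 12 h.

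The subunit genes moved little and they moved together. Of their 1155 values outside the reference, 1145 (99.1%) were within 2-fold of it, against 81.6% of the values of all genes. Of the 33 members, 27 were never 2-fold from the reference, as were 1311 of the 6496 genes (20.2%). The median of the group was between −0.37 and 0.60 over the 35 conditions, and the SD over the members was between 0.15 and 0.36 except in 1 condition, the doubly induced wild type at 12 h, where it was 0.68. All 10 values beyond 2-fold were in the doubly induced wild type.

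**Figure D1:**
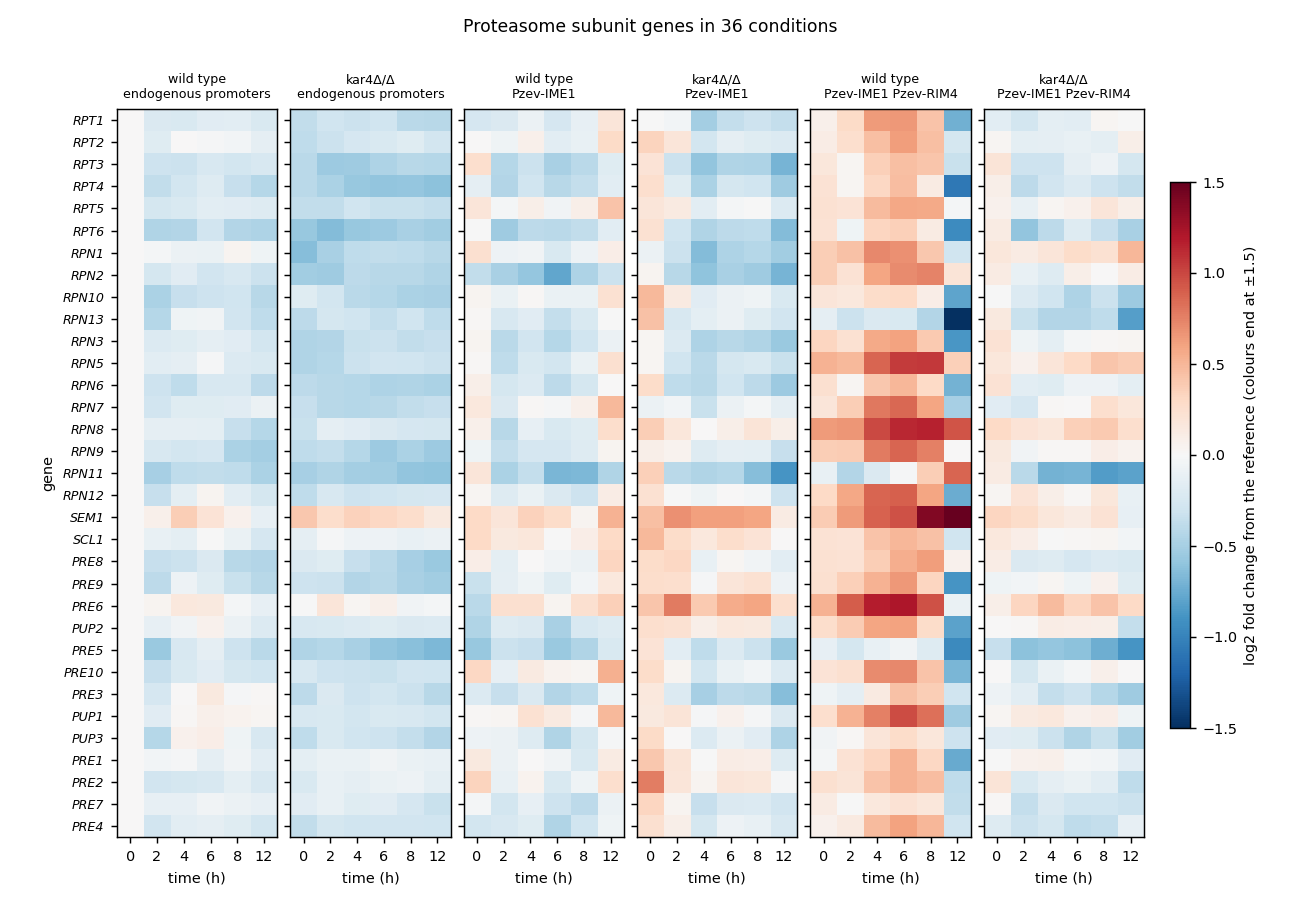
Log2 fold change from the reference (colour) of the 33 subunit genes (rows, ordered base, lid, α ring, β ring) at 6 times in hours (columns) in the 6 strains (panels). The wild type Pzev-IME1 Pzev-RIM4 panel holds the darkest colours, red at 4, 6 and 8 h and mostly blue at 12 h, where SEM1 (2.12) and RPN13 (−1.50) lie beyond the colour scale or at its end.

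With endogenous promoters the members were slightly below the reference at each later time. The wild type median was −0.27 at 2 h, −0.16 at 4 h, −0.14 at 6 h, −0.17 at 8 h and −0.25 at 12 h. At 12 h 31 of the 33 members were below 0, against 51.2% of all genes, and the lowest was *RPN9*, a lid subunit, at −0.51. No member was 1.5-fold from the reference at any time in this strain, whereas 8.87% of all genes were 1.5-fold lower at 2 h and 10.7% at 12 h. After quantile normalization 8 members were 1.5-fold lower at 2 h and 10 at 12 h, with medians of −0.42 and −0.37. The share of all genes was not computed after this normalization. In the mutant the median was −0.37 in the column labelled 0 h and −0.30, −0.32, −0.32, −0.33 and −0.36 at 2, 4, 6, 8 and 12 h. After quantile normalization these medians were −0.65 in the column labelled 0 h and −0.51, −0.53, −0.51, −0.51 and −0.55. Before it 0 to 3 members and 7.42% to 10.4% of all genes were 1.5-fold lower. After it 12 to 20 members were, and the share of all genes was again not computed. At 12 h 32 of the 33 members were below 0 (51.2% of all genes), and *SEM1* was the exception at 0.15.

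*SEM1* (YDR363W-A) was the member most often highest. It encodes a small acidic protein of the lid that is also part of complexes outside the proteasome. In wild type with endogenous promoters its values were 0.08, 0.36, 0.20, 0.07 and −0.12 from 2 to 12 h. In the mutant they were 0.27, 0.34, 0.31, 0.27 and 0.15 from 2 to 12 h, and 0.40 in the column labelled 0 h of that strain. *SEM1* was above the group median in all 35 conditions and was the highest member in 18 of them. At the other end *PRE5* (YMR314W), an α subunit, was below the group median in 34 conditions and was the lowest member in 8. *PRE6* (YOL038W), also an α subunit, was above the group median in 33.

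With Pzev-*IME1* the group again stayed close to the reference, and the 2 genotypes ended on different sides of it. The wild type median was 0.02, −0.22, −0.12, −0.25, −0.20 and 0.11 from 0 to 12 h. That of the mutant was 0.26, 0.04, −0.26, −0.09, −0.15 and −0.29. In the mutant at 0 h 30 of the 33 members were above 0, against 49.5% of all genes, the highest being *PRE2*, a catalytic β subunit, at 0.77. *RPN11* (YFR004W), which encodes the metalloprotease that removes ubiquitin chains at the lid, was the lowest member at 12 h in both genotypes, at −0.45 in wild type and −0.88 in the mutant. *RPN2*, a base scaffold subunit, was lowest in wild type at 6 h, at −0.78.

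In the doubly induced wild type the group rose until 6 h and was below its starting level at 12 h. The median was 0.22 at 0 h, 0.21 at 2 h, 0.47 at 4 h, 0.60 at 6 h (1.51-fold), 0.42 at 8 h and −0.37 at 12 h (77.5% of the reference). All 33 members were higher at 6 h than at 2 h, against 45.5% of all genes, and 25 had their highest value at 6 h. The other 8 had it at another time, as did 94.0% of all genes. After quantile normalization all 33 were again higher at 6 h than at 2 h, but 12 had their highest value at 6 h and 13 at 0 h. At 6 h 17 members were at least 1.5-fold above the reference, against 28.1% of all genes, and 3 were at least 2-fold above it, against 18.3%. These 3 were *PRE6* at 1.22, *RPN8* at 1.13 and *RPN5* at 1.04. The counts of members at least 1.5-fold up were 13 at 4 h (26.6% of all genes) and 10 at 8 h (32.2%). At 8 h 31 members were above 0, against 49.1% of all genes. *RPN13* (YLR421C), a ubiquitin receptor of the base, was the lowest member at 6 h at −0.23. When the columns were given the same spread by quantile normalization, the medians from 0 to 12 h were 0.34, 0.18, 0.33, 0.39, 0.21 and −0.16, so that 6 h was little above 0 h. No member was then 2-fold up at 6 h, and 5, 5 and 1 were 1.5-fold up at 4, 6 and 8 h.

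**Figure D2:**
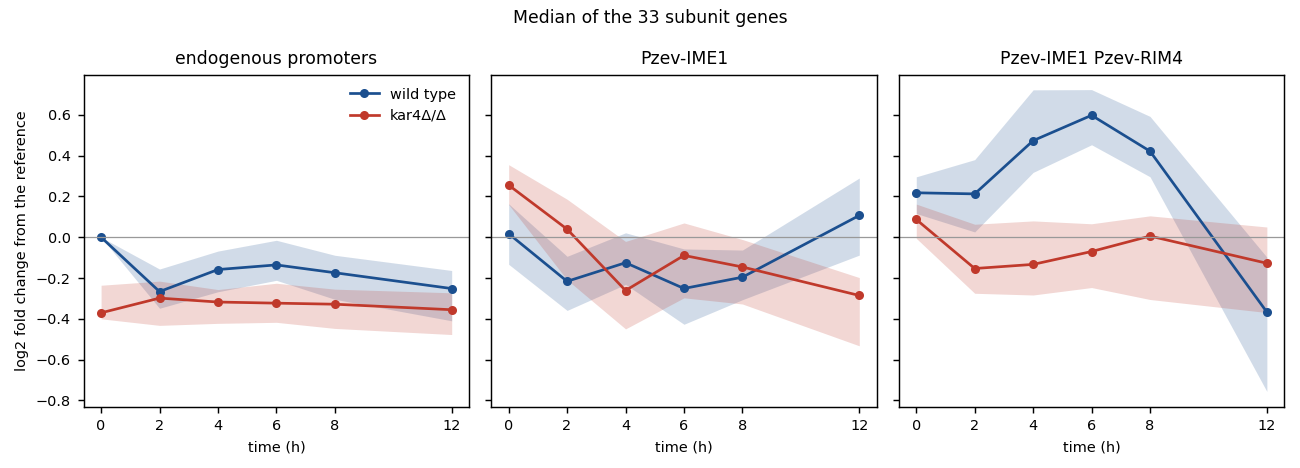
Median log2 fold change from the reference of the 33 subunit genes (points and lines) against time in hours, for wild type (blue) and kar4Δ/Δ (red), with the interquartile range of the members shaded; 1 panel per promoter background. With both Pzev promoters the wild type median reached 0.60 at 6 h and −0.37 at 12 h, while that of kar4Δ/Δ stayed between −0.15 and 0.09.

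At 12 h in this strain the members spread apart. Of the 33, 13 were at least 1.5-fold below the reference, against 34.7% of all genes, and 2 were at least 2-fold below it, against 23.9%: *RPN13* at −1.50 and *RPT4*, a base ATPase, at −1.07. *RPT6* was at −0.94, *PRE5* at −0.95, and *RPN3* and *PRE9* at −0.88 each. In contrast, *SEM1* was at 2.12 (4.34-fold), the only member among the 27.8% of all genes that were at least 2-fold up. *RPN8* (0.94), *RPN11* (0.87), *RPN5* (0.36) and *RPN2* (0.20) were also above the reference, as were *PRE8* (0.07), *RPN9* (0.00) and 49.2% of all genes. Of these 7 members 5 encode lid subunits, and the median of the 9 lid genes was 0.00, against −0.53 for the ATPases, −0.54 for the other base genes, −0.68 for the α ring and −0.37 for the β ring. The lid genes were split, with *RPN3*, *RPN12*, *RPN6* and *RPN7* at −0.88, −0.74, −0.70 and −0.50. After quantile normalization the SD over the members was 0.29 in place of 0.68, no member was 2-fold down and 1 was 1.5-fold down, and *SEM1* and *RPN11* were at 0.80 and 0.34. The lid genes were also the highest at 6 h, with a median of 0.87 against 0.49 to 0.60 for the other 4 groups.

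The doubly induced courses of the members that stayed up were followed singly, a choice made after their values were seen. *SEM1* was at 0.38, 0.64, 0.88, 0.96, 1.39 and 2.12 from 0 to 12 h in wild type and at 0.32, 0.27, 0.17, 0.13, 0.22 and −0.12 in the mutant. It thus increased at every step in wild type and did not exceed its 0 h value in the mutant. *RPN11* was at −0.11, −0.44, −0.21, −0.01, 0.37 and 0.87 in wild type and at 0.13, −0.40, −0.71, −0.69, −0.84 and −0.80 in the mutant. From 2 to 12 h the gene rose in wild type and fell in the mutant. *RPN8* (YOR261C), a lid subunit that pairs with Rpn11p, was at 0.64, 0.66, 0.99, 1.13, 1.16 and 0.94 in wild type and between 0.17 and 0.39 in the mutant. *SEM1* and *RPN11* were the only 2 members whose wild type value increased from 8 to 12 h, against 56.5% of all genes.

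The neighbours of these genes bear on what their reads can show. No member overlaps another protein-coding gene of the RefSeq annotation, and other features were not checked. Whether the authors' counting used strand is not given in the sources used here. *SAD1* lies 213 bases beyond the end of *RPN11* on the opposite strand, and in the doubly induced wild type it was at −0.06, 0.63, 0.38, 0.83, 2.51 and 4.25. Its rise at 8 and 12 h coincided with that of *RPN11*, and in the mutant, where *RPN11* was low, *SAD1* was between −0.52 and 1.19. The part of reads from *SAD1* in the *RPN11* value was not tested. *CDC40* and *ESC2*, the neighbours of *SEM1*, were at 0.24 and −0.39 in that strain at 12 h. *URA4*, the nearest gene to *RPN13*, was then at −2.04, and its part in the *RPN13* value was likewise not tested.

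**Figure D3:**
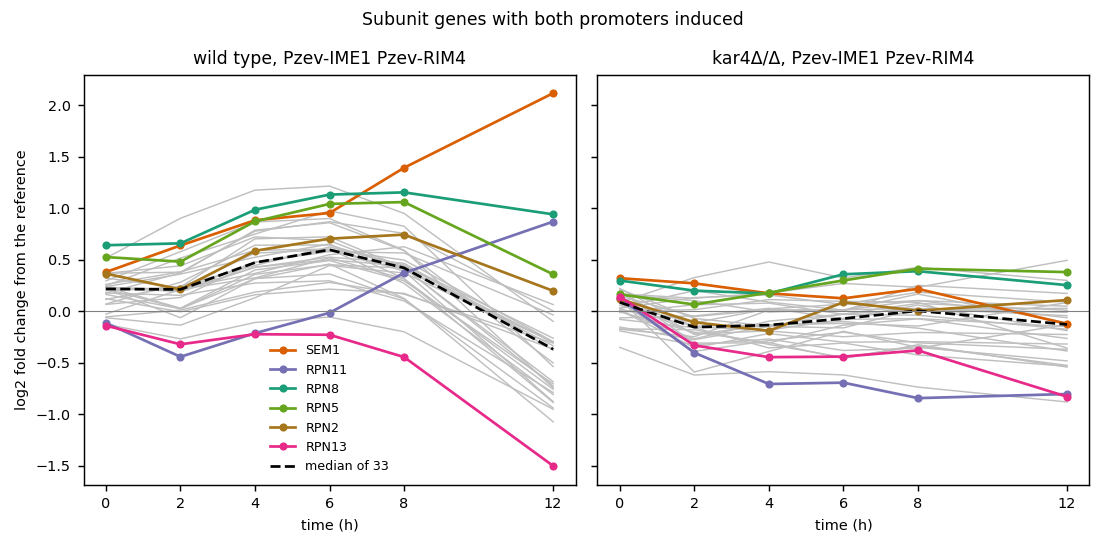
Log2 fold change from the reference of each subunit gene against time in hours in wild type (left) and kar4Δ/Δ (right) with both Pzev promoters. The coloured lines are SEM1, RPN11, RPN8, RPN5, RPN2 and RPN13, the grey lines the other members and the dashed line the group median. SEM1 and RPN11 ended at 2.12 and 0.87 in wild type and at −0.12 and −0.80 in kar4Δ/Δ.

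The comparison of *kar4*Δ/Δ with wild type asks what loss of Kar4p does to these genes in each background. In the Pzev backgrounds the genotypes also differ in the markers at the deletion, and the part of these markers was not tested. With endogenous promoters no member was 2-fold apart at any time, as was true of most genes: at most 2.34% of all genes were 2-fold higher and 2.88% 2-fold lower. The median difference (*kar4*Δ/Δ minus wild type) was 0.00 at 2 h, −0.15 at 4 h, −0.21 at 6 h, −0.14 at 8 h and −0.09 at 12 h, and −0.37 in the column labelled 0 h. In that column alone quantile normalization gave 2 members 2-fold lower, and it gave 20 members 1.5-fold lower there, with a median of −0.65. This normalization rescaled the mutant column but left the reference at 0, so the columns compared were not on a like scale. Before it, no member was 2-fold lower and 1 was 1.5-fold lower, against 1.29% and 7.42% of all genes. The share of all genes after it was not computed. At 4 h 31 of the 33 members were below 0, against 52.8% of all genes. *RPN1* (YHR027C), a large base subunit and a docking site for ubiquitin-binding shuttle proteins, had the lowest mean difference over the 6 times, −0.40, and −0.36 without the column labelled 0 h. *SEM1* had the highest, 0.19, and 0.15 without that column.

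With Pzev-*IME1* the difference changed sign during the course. Its median was 0.24, 0.19, −0.09, 0.11, 0.04 and −0.43 from 0 to 12 h. At 2 h 30 members were higher in the mutant (50.2% of all genes), and at 12 h all 33 were lower (49.0% of all genes). At 12 h 5 members were at least 1.5-fold lower, against 11.7% of all genes (2 after quantile normalization), and none was 2-fold lower. The largest difference at 12 h was that of *PRE10*, an α subunit, at 0.54 in wild type and −0.21 in the mutant. *RPN1* was lower in the mutant at all 6 times, with a mean difference of −0.40. *PUP2* (YGR253C), another α subunit, had the highest mean difference, 0.40. In wild type it was at −0.46, −0.19, −0.22, −0.49, −0.24 and −0.19, and in the mutant at 0.25, 0.23, 0.09, 0.16, 0.15 and −0.25, so that the courses were apart until 8 h and met at 12 h.

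With both Pzev promoters the members were lower in the mutant from 2 to 8 h. The median difference was −0.17, −0.37, −0.58, −0.72, −0.47 and 0.26 from 0 to 12 h. All 33 members were lower in the mutant at 4 h and again at 6 h, against 51.8% and 50.1% of all genes. At least 1.5-fold lower were 16 members at 4 h (14.4% of all genes), 23 at 6 h (21.0%) and 12 at 8 h (26.3%). After quantile normalization these counts were 4, 5 and 1, and the medians −0.45, −0.46 and −0.25, with all 33 members still lower at 4 and 6 h. None was 2-fold lower at 6 h, where the lowest was *PRE4*, a β subunit, at −0.98 (0.60 in wild type and −0.38 in the mutant). At 8 h 2 members were at least 2-fold lower, against 17.6% of all genes: *RPN11* at −1.22 and *SEM1* at −1.18. *RPN13* was the only member above 0 at 8 h, at 0.06, against 53.6% of all genes.

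At 12 h the difference had turned for most members. The median was 0.26 and 25 members were higher in the mutant, against 49.9% of all genes. The other 8 were *SEM1*, *RPN11*, *RPN8*, *PRE8* (−0.29), *PRE3* (−0.24), *PUP3* (−0.22), *RPN2* (−0.09) and *PRE2* (−0.01). At least 1.5-fold higher were 9 members, a share below the 30.8% of all genes, with *RPN3* the highest at 0.91 (−0.88 in wild type and 0.03 in the mutant). *SEM1*, *RPN11* and *RPN8* were at least 1.5-fold lower, against 34.3% of all genes. *SEM1* and *RPN11* were at least 2-fold lower, at −2.24 and −1.67, as were 25.2% of all genes. After quantile normalization no member was 2-fold lower at 8 or 12 h, none was 1.5-fold higher at 12 h, and the median at 12 h was 0.10. Over the 6 times *SEM1* had the lowest mean difference, −0.90, and *RPN13* the highest, 0.10.

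**Figure D4:**
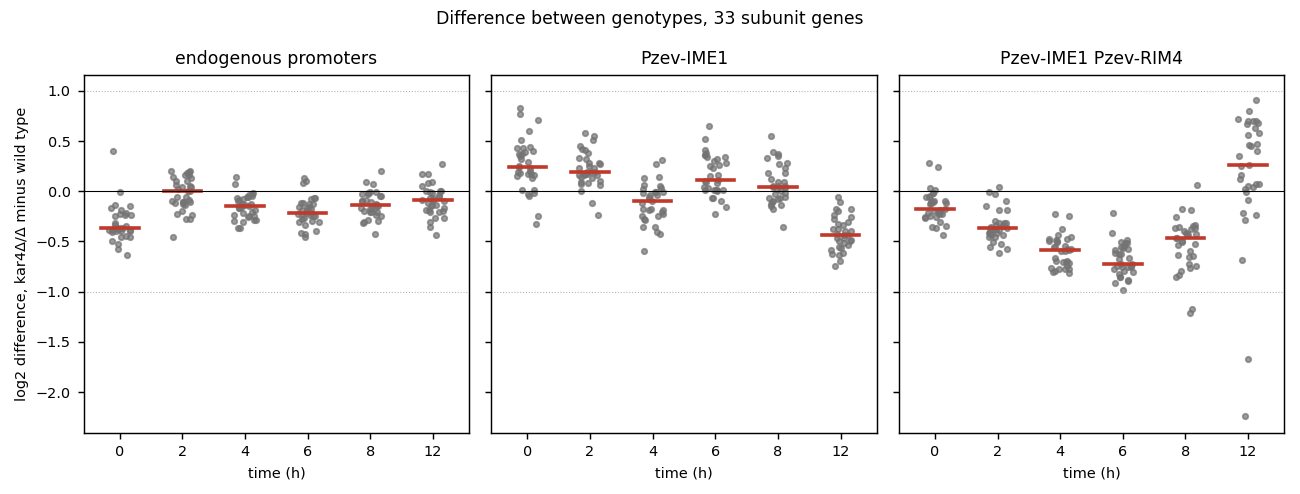
Log2 difference between kar4Δ/Δ and wild type of each subunit gene (grey points, shifted sideways at random) and their median (red bar) at each time in hours, 1 panel per promoter background; dotted lines mark a 2-fold difference. With both Pzev promoters the median fell to −0.72 at 6 h and was 0.26 at 12 h, with SEM1 (−2.24) and RPN11 (−1.67) far below.

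The promoter backgrounds were compared within a genotype. Besides Pzev-*RIM4*, the Pzev backgrounds differ in Z3EV copies and auxotrophic markers, and the part of each in these differences was not tested. Until 8 h the doubly induced wild type lay above the Pzev-*IME1* wild type. The median difference was 0.15, 0.45, 0.59, 0.84 and 0.56 at 0, 2, 4, 6 and 8 h. At 6 h all 33 members were higher with both promoters, against 50.1% of all genes. At least 1.5-fold higher were 27 (24.7% of all genes) and at least 2-fold higher 9 (13.4%; 1 after quantile normalization), with *RPN2* the highest at 1.49 (0.71 with both promoters and −0.78 with Pzev-*IME1*). At 12 h the median difference was −0.60. Of the members 5 were then at least 2-fold lower with both promoters (20.3% of all genes; none after quantile normalization), and 2, *SEM1* and *RPN11*, at least 2-fold higher (24.0%; also none). In the mutant the same median difference lay between −0.20 and 0.15 at all 6 times. There, 3 members exceeded their Pzev-*IME1* value at least 1.5-fold at 12 h (17.6% of all genes): *RPN1* at 1.02, *RPN2* at 0.81 and *RPN5* at 0.71. *RPN1*, at 0.50 with both promoters and −0.52 with Pzev-*IME1*, was alone in being 2-fold higher, against 6.23% of all genes, and was at 0.83 after quantile normalization.

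Pzev-*IME1* alone differed little from the endogenous promoters in wild type until 8 h, with a median difference between −0.13 and 0.04. At 12 h the median difference was 0.40, and 6 members were at least 1.5-fold higher with Pzev-*IME1*, as were 20.0% of all genes (10 members after quantile normalization). In the mutant 15 members were at least 1.5-fold higher with Pzev-*IME1* at 0 h (21.5% of all genes), but the column subtracted there is the one labelled *kar4*Δ/Δ at 0 h. Quantile normalization gave 29 members and a median of 0.91 in place of 0.56, and the share of all genes after it was not computed. At 2 h, which does not rest on that column, the median difference was 0.29 with all 33 members above 0, against 48.2% of all genes. At 12 h the median difference was 0.06. After quantile normalization these medians were 0.53 and 0.23.

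The change within each strain from 2 to 12 h was near 0 with endogenous promoters, with a median of −0.02 in wild type and −0.07 in the mutant. With Pzev-*IME1* it was 0.29 in wild type, where all 33 members were above 0 (48.1% of all genes), and −0.35 in the mutant, where all 33 were below 0 (45.1% of all genes). Doubly induced, it was −0.68 in wild type and 0.01 in the mutant. In this wild type strain 9 members were at least 2-fold lower at 12 h than at 2 h (20.2% of all genes) and 2 at least 2-fold higher (23.8%), again *SEM1* and *RPN11*. The fall came after 8 h, an interval chosen after the values were seen. From 8 to 12 h the median change was −0.79 and 14 members fell at least 2-fold, against 6.30% of all genes. After quantile normalization the change was −0.38 and no member was 2-fold lower or higher, either over this interval or from 2 h. The largest fall was that of *PUP1*, a catalytic β subunit, from 0.83 to −0.54.

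The profiles of the members over the 35 conditions were alike. As a description, Pearson's r between a member and the median of the other members had a median of 0.83. It was at least 0.7 for 29 of the 33 members, against 52 (0.80%) of the genes outside the group. The conditions share a reference and, within a strain, a time course, so they are not independent. *RPN6* (YDL097C), a lid subunit that contacts the core particle, was the most like the group, at 0.93, followed by *RPT2*, *RPN12*, *RPT4* and *RPT6*, at 0.92 each. With both promoters *RPN6* was at 0.24, 0.03, 0.40, 0.49, 0.30 and −0.70 in wild type and at 0.22, −0.15, −0.18, −0.08, −0.07 and −0.15 in the mutant. The least like were *RPN13* at 0.33, *SEM1* at 0.35, *RPN11* at 0.39 and *PRE5* at 0.64. The 5 genes outside the group most like its median were *SBA1*, a co-chaperone of Hsp90 (0.90), *CCT8*, a subunit of the cytosolic chaperonin (0.86), *CHK1*, a checkpoint kinase (0.83), *ARE2*, a sterol acyltransferase (0.83), and *MLG1* (0.82). *MLG1* moved much further than the members, to 2.91 at 4 h in the doubly induced wild type.

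The members also varied less among themselves than the genes of 3 other lists. The SD over the 33 members, divided by that over all genes, had a median of 0.25 over the conditions. The same ratio was 0.57 for 20 core autophagy genes, 0.65 for 138 cytosolic ribosomal protein genes and 1.08 for 28 heat shock protein genes. The ribosomal protein median was −3.06 in the doubly induced wild type at 6 h, where that of the proteasome genes was 0.60. At 12 h it was −2.76 in wild type and −3.54 in the mutant, against −0.37 and −0.13 for the proteasome genes. Ribosomal protein mRNAs are abundant in growing cells, and the part of their fall in the proteasome values was not tested.

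Of 35 related genes, 17 were at least 2-fold from the reference in 1 or more conditions, a smaller share than the 79.8% of all genes. *RPN4* (YDL020C), the activator of the subunit genes, was at 0.98 at 0 h and between −1.08 and −0.71 from 2 to 12 h in wild type Pzev-*IME1*, where the subunit median was between −0.25 and 0.11. In the mutant with Pzev-*IME1* it was at 0.59 at 0 h and between −1.40 and −0.65 later. With both promoters *RPN4* was at 0.61, −0.01, 0.15, 0.12, −0.11 and −1.56 in wild type, and at 0.68, −0.76, −0.88, −0.90, −0.40 and 0.13 in the mutant. *RPN4* was thus higher in wild type from 2 to 8 h and lower there at 12 h, as the subunit median was. At 0 h *RPN4* was slightly lower in wild type, while the median subunit difference was −0.17. With Pzev-*IME1* this parallel was seen only at 4 h, where both were lower in the mutant. At 2 h *RPN4* was at −0.99 in wild type and −1.19 in the mutant, where the median subunit difference was 0.19. At 12 h it was at −0.71 and −0.65, against a median subunit difference of −0.43. At 0 h *RPN4* was lower in the mutant, while the median subunit difference was 0.24. At 6 and 8 h *RPN4* was at −1.08 and −1.04 in wild type and at −1.09 and −1.10 in the mutant. The median subunit differences at these times were 0.11 and 0.04. *UBR2*, a ubiquitin ligase for Rpn4p, was at 0.91, 1.58, 2.07, 1.98, 1.69 and 0.73 in the doubly induced wild type and rose to 1.80 at 12 h in the mutant. The other 3 regulators, *PDR1*, *HSF1* and *YAP1*, stayed within 2-fold of the reference in all conditions.

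Among 10 assembly chaperones, *UMP1*, the maturation factor of the core particle, was between 0.03 and 0.41 until 8 h and at −1.23 at 12 h in the doubly induced wild type, and at −0.66 at 12 h in the mutant. *NAS6*, a chaperone of the base, was at −0.28, −1.00, −1.38, −1.82, −1.79 and −1.02 in this wild type strain and between −0.54 and 0.16 in the mutant. At 6 h, when the ATPase and other base genes had medians of at least 0.49, it was at its lowest. At 6 h 1 of the 10 chaperones was at least 2-fold up in wild type, *TMA17* at 1.12 (18.3% of all genes), and 1 down (17.6%). *ADD66*, a chaperone of the α ring, reached 0.86 at 12 h in wild type and −0.76 in the mutant.

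Of 7 proteasome-associated proteins, *ECM29*, which tethers core and regulatory particle, was at least 2-fold up from 2 h in every Pzev course apart from the mutant with Pzev-*IME1* at 4 h (0.89). It reached 1.99 at 12 h in wild type Pzev-*IME1*, 2.05 at 4 h in the doubly induced wild type and 2.89 at 12 h in the doubly induced mutant. *ECM29* also holds GGTGGCAAA in its promoter window, as do *UBI4*, *UBA1*, *CDC48* and *YAP1* among the 35 genes. *BLM10*, an activator that caps the core particle, was at 0.24, 0.27, 0.64, 0.63, 0.22 and −0.83 in the doubly induced wild type and at −0.10, 0.21, 0.27, 0.08, 0.47 and 1.04 in the mutant. At 12 h the genotypes were on opposite sides of the reference for this gene.

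Of 13 genes for ubiquitin and its delivery, 2 were at least 2-fold up and 3 at least 2-fold down at 12 h in the doubly induced wild type, against 27.8% and 23.9% of all genes. In the mutant none was, against 17.2% and 17.0% of all genes. *UBI4*, the stress-induced polyubiquitin gene, was between −0.25 and 0.43 in this wild type strain. *RAD23*, which encodes a shuttle that carries ubiquitinated proteins to the proteasome, was at 0.44, 0.86, 1.24, 1.45, 1.61 and 1.28 in wild type and between −0.13 and 0.48 in the mutant. *DDI1*, a shuttle-like protease, was at −1.50 at 12 h in wild type and −0.42 in the mutant, and *SHP1*, a cofactor of Cdc48p, at −1.71 and −0.40. The paralogous ubiquitin-conjugating enzymes *UBC5* and *UBC4* were at 2.16 and −1.67 at 12 h in wild type and at 0.10 and −0.21 in the mutant. How reads shared by such a pair were assigned is not given in the sources used here, so their values are uncertain.

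**Figure D5:**
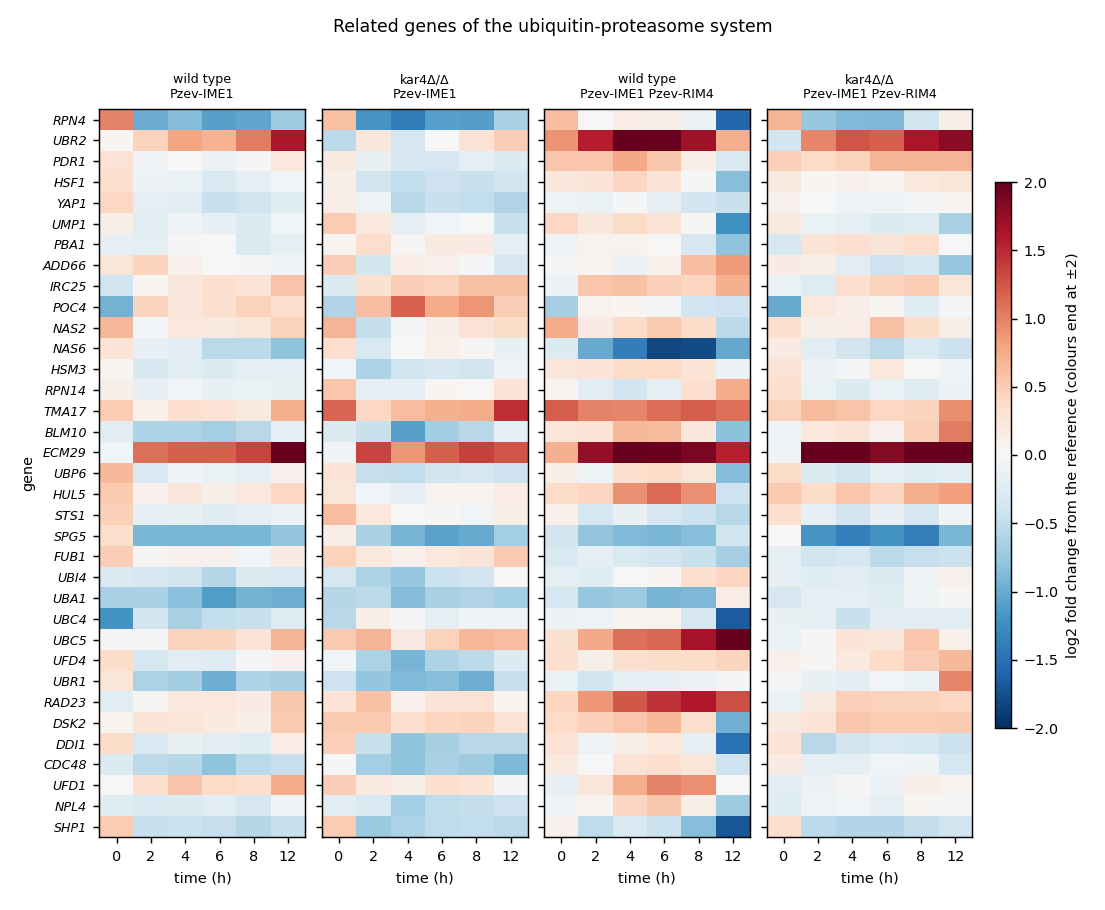
Log2 fold change from the reference (colour) of 35 related genes (rows: regulators, assembly chaperones, associated proteins, ubiquitin and its delivery) at 6 times in hours in the 4 Pzev strains (panels). ECM29 is red in each panel after 0 h and reaches 2.89, RPN4 is blue after 0 h with Pzev-IME1, and UBC5 (2.16) and UBC4 (−1.67) end on opposite sides of the reference in wild type with both promoters.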

How the data were processed

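Polyadenylated RNA from 72 libraries, 2 biological replicates of each of 36 conditions, was sequenced by the authors with paired reads. The authors aligned the reads with BWA-MEM to sacCer3, counted them per gene with htseq-count and compared conditions in DESeq2; versions, strand setting and any shrinkage of fold changes are not given in the sources used here. The deposited values are log2 fold changes of each condition from wild type with endogenous promoters at 0 h, with replicates combined. These comparisons by the authors are the table's only measure and were used as such. The table holds no counts, errors or p-values, so depth and precision are unknown and no test was made. Its 16 columns without a name hold no values and were not used.

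Of 6660 genes, the 6496 with a value in every column were kept. Differences, medians, SDs, counts at least 2-fold or 1.5-fold (inclusive) and Pearson's r were computed in Python 3.11.15 with numpy 2.4.6 and pandas 2.3.3, and the steps were tested on simulated data. Member symbols, coordinates and promoter sequences are from RefSeq R64, whose locus tags covered 5986 of the 6660 identifiers and all 33 members. Named members are the highest and lowest in the conditions with the highest and lowest group median, those with the extreme mean genotype differences, and those most and least like the group; other members were named after their values were seen. The members and gene lists were chosen with earlier results of these data known. Alternatives were quantile normalization or median centring of the columns, a 1.5-fold size, changes since 0 h, and shorter motifs. Quantile normalization left the reference column at 0, and every percentage of all genes is one from before it. The 8 to 12 h interval and the motif spellings with A at the first or G at the seventh base were added after seeing the data.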

Additional observations from a re-analysis of the deposited data

Results flagged for a closer look

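With Pzev-*IME1* the group moved in opposite directions in the 2 genotypes between 2 and 12 h. The median change of the 33 members was 0.29 in wild type, with every member above 0 (48.1% of all genes). It was −0.35 in *kar4*Δ/Δ, with every member below 0 (45.1% of all genes). The difference was not tested, because each condition has a single combined value. It rests on 4 columns, and in wild type most of the change lay between 8 and 12 h, where the median change was 0.27, against −0.19 in *kar4*Δ/Δ. The *kar4*Δ/Δ median was 0.04 at 2 h, −0.26 at 4 h and −0.29 at 12 h.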

How the results depend on the processing

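No paired analysis was possible because the deposited columns combine the 2 replicates of each condition; for the same reason no replicate could be left out. The 10 group medians compared kept within 1.5-fold of their values in all 27 alternatives run on them. Some of these medians were themselves smaller than 1.5-fold, so this bound could not show that they held. Median centring kept the 10 counts within 1.5 times. Keeping genes with missing values elsewhere was tried for the doubly induced wild type at 6 and 12 h. It could not change a count or a median, because all members had a value in every condition. Its medians are among the 27 alternatives. Shorter motifs were held by 27 to 30 members. Counts at least 2-fold apart depended on the scale. Quantile normalization gives every column but the reference the same spread. It brought the members up at 6 h in the doubly induced wild type from 3 to 0 and those down at 12 h from 2 to 0. It likewise brought those lower in the mutant at 12 h from 2 to 0, those in which the doubly induced wild type exceeded Pzev-*IME1* at 6 h from 9 to 1, and those in which it was lower at 12 h from 5 to 0. The falls from 2 to 12 h and from 8 to 12 h went from 9 and 14 to 0. The matching medians at 6 h and 12 h in the doubly induced wild type were 0.39 and −0.16, the genotype differences −0.46 and 0.10, and the 8 to 12 h change −0.38, all of the same sign as before. A 1.5-fold size gave 17 members up at 6 h and 13 down at 12 h in the doubly induced wild type. It gave 23 lower in the doubly induced mutant at 6 h and 5 at 12 h with Pzev-*IME1*. In the doubly induced wild type 27 members were higher at 6 h than with Pzev-*IME1*. At 12 h 17 were lower, against 32.99% of all genes. In that strain 17 and 26 members fell from 2 and 8 h to 12 h, against 33.28% and 17.35% of all genes. The shares of all genes for the other 1.5-fold counts are given in the Results. Taking changes since 0 h in each strain gave 1 member in place of 0 for Pzev-*IME1* at 12 h. With endogenous promoters at 12 h it turned the median genotype difference from −0.09 to 0.24, and this alternative subtracts the 0 h column in which *KAR4* was not low.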

Other observations

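The core of the middle sporulation element, GNCACAAA, to which the meiotic activator Ndt80p binds, was searched in the same windows after the values had been seen. It occurred in 259 of the 5982 windows (4.33%) and in none of the 33 members. With so low a share over all windows, its absence from 33 does not set the members apart. Only this spelling was searched, and whether Ndt80p acts on any member was not tested. *NDT80* itself was at −0.23, 0.55, 2.66, 4.18, 5.41 and 6.04 from 0 to 12 h in the doubly induced wild type and reached 1.27 at 12 h in the mutant.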
